A study of Ovis aries with 6 samples.

Results

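The nuclear-encoded subunits of respiratory chain complexes I to IV were followed in cultured sheep mitral valve endothelial cells, the cells that cover the leaflets of the mitral valve. Members were 40 subunit genes picked by their symbols, with earlier results of these data known. Of these, 35 had a row among the 18865 gene symbols of the count table. All 35 passed the filter on low counts, which left 14326 genes to test. UQCRFS1, COX6C, COX7A2, COX7B and COX7C were not analysed here. The members analysed comprise 20 subunits of complex I, 4 of complex II, 6 of complex III and 5 of complex IV, with NDUFA4 placed in complex IV, where it sits in the assembled enzyme in spite of its name.

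Cells of both groups were kept for 24 h with sheep plasma. In 3 libraries the plasma was taken from animals that had had a myocardial infarction (post-MI plasma), and in the other 3 from naive animals (naive plasma). No genotype, strain, age or passage is given in the labels. They also leave unsaid whether replicate libraries stem from separate cultures or plasma donors, so the p-values here speak of library-to-library spread, which may be technical. The series asks about the passage of valve endothelium towards mesenchymal features after infarction.

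The respiratory chain sits in the inner mitochondrial membrane. Complex I takes electrons from NADH and complex II from succinate, both pass them through ubiquinone to complex III, and cytochrome c carries them on to complex IV, which reduces oxygen. Complexes I, III and IV pump protons, and ATP synthase uses the gradient. A few subunits are made inside mitochondria from mitochondrial DNA, and all others are encoded in the nucleus and imported. Endothelial cells are known for drawing much of their ATP from glycolysis.

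Total counts were 14858472 to 20672794 per library, and each member had between 253 and 3686 counts in every library. Values are in CPM, counts set relative to library size, with the totals corrected for composition by TMM factors. Endothelial markers, of which 11 of 11 had rows, summed to 2884 to 3630 CPM in naive and 3170 to 4365 CPM in post-MI libraries. Of these, 8 had a higher and 3 a lower estimate with post-MI plasma. By edgeR 3, all higher, had an unadjusted p under 0.05, beside 8.68% of all genes. PECAM1 and CDH5 were at 889 to 1407 and 864 to 1384 CPM, while VWF was at 6.58 to 17.8 CPM in naive and 15.4 to 49.8 CPM in post-MI libraries (log2 fold change 1.43 ± 0.49, SE; edgeR adjusted p = 0.555). Markers of fibroblasts and valve interstitial cells, of which 8 of 8 had rows, summed to 10965 to 20537 CPM in naive and 14043 to 18656 CPM in post-MI libraries, and those of smooth muscle and pericytes (7 of 8, RGS5 at 0) to 925 to 5020 and 4516 to 6195 CPM. Leukocyte markers (7 of 8) summed to 35.6 to 54.9 and 34.1 to 40.9 CPM, lymphatic markers (4 of 4) to 7.99 to 23.3 and 9.53 to 12.8 CPM, red cell and platelet markers (3 of 8, ALAS2 and PPBP at 0) to 4.98 to 5.36 and 3.46 to 5.90 CPM, and cardiomyocyte markers (4 of 6) to 0.0579 to 0.200 and 0.0577 to 0.161 CPM. Among tested genes of these lists, fibroblast markers had 3 higher and 5 lower estimates, smooth muscle 4 and 1, leukocyte 1 and 2, and lymphatic 1 and 1. The higher leukocyte marker was PTPRC, at 0.141 to 0.347 CPM in naive and 0.643 to 1.33 CPM in post-MI libraries. Whether these cells or transcripts took part in the values below was not tested. Naive replicate 1 stood apart on the first principal component, at -52.3, while the other libraries lay at -0.50 to 18.5. In bulk RNA, fewer cells of a type and less RNA per cell cannot be told apart.

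Transcripts of the respiratory chain differed little between the plasma groups. Of the 35 subunits, 25 had a lower and 10 a higher estimate with post-MI plasma, and the log2 fold changes, post-MI minus naive, ran from -0.35 (NDUFS1) to 0.18 (NDUFA8) with a median of -0.06. The median over all genes tested was -0.01, and 52.1% of all genes had a negative estimate. No member passed edgeR's quasi-likelihood test at a Benjamini-Hochberg adjusted p of 0.05, where 0% of all genes passed, and the smallest adjusted p was 0.566 (UQCRB). At an unadjusted p under 0.05 edgeR gave 0 members, against 8.68% of all genes. DESeq2 and limma-voom also called 0 members, against 1.51% and 0% of the genes for which each gave an adjusted p, and neither gave a member with an unadjusted p under 0.05.

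Judged by the spread between libraries, the limits on these differences were narrow. That spread may be technical, so the intervals need not cover differences between cultures or plasma donors. Standard errors (SE) of the members' log2 fold changes were 0.11 to 0.22, with a median of 0.15 against 0.21 over all genes tested. The 95% interval of the log2 fold change lay inside a 2-fold change in either direction for all 35 members, and inside a 1.5-fold change for 26 of them. That is 74.3% of the members, beside 33.7% of all genes tested and 50.4% of the genes whose average level lies within the members' own range. The lowest bound was -0.77, for NDUFS1, and the highest was 0.59, for NDUFA8.

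**Figure D1:**
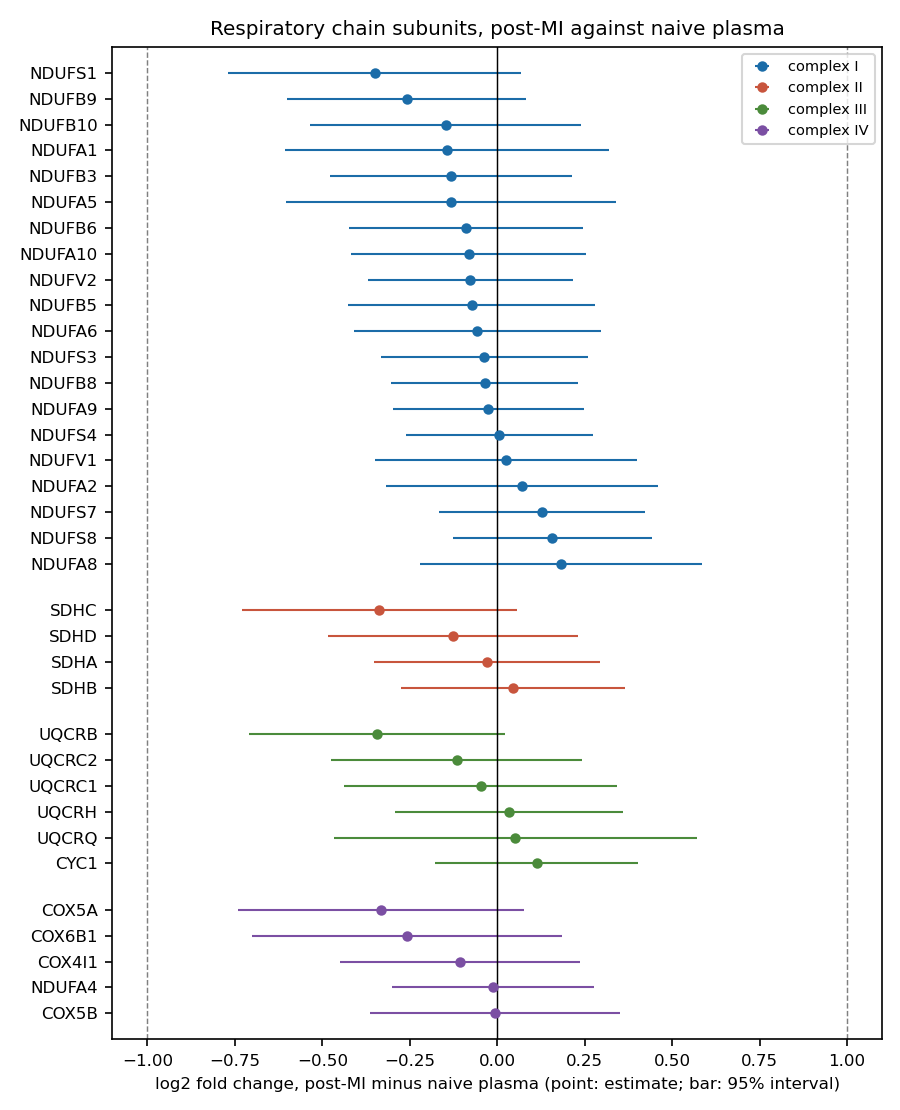
Log2 fold change of each subunit (x axis, post-MI minus naive plasma, 3 libraries per group) with its 95% interval as a bar, grouped and coloured by complex; dashed lines mark a 2-fold change either way. All 35 intervals cross 0 and lie between -0.77 and 0.59.

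The 2 groups were fully parted in CPM for 3 members, 8.57% of those tested, beside 16.1% of all genes. CYC1 was the 1 member with every post-MI library above every naive library (background 8.32%). NDUFB9 and UQCRB were the 2 with every post-MI library below (background 7.82%). The split of 1 higher and 2 lower depended on the scaling: with plain library totals it was 0 and 2, since CYC1 overlapped, and with upper quartile scaling it was 1 and 3, with NDUFS8 in place of CYC1 and SDHC added. Leaving out 1 library gave 5 to 11 such members, but parting 2 libraries from 3 is easier for any gene, and the share over all genes rose too. Without naive replicate 2 the count was 11 (31.4% of members, 30% of all genes), of which 9 were lower (25.7%, beside 15% of all genes). Without naive replicate 1 or naive replicate 3 it was 5 (14.3%, beside 24.7% and 28.9% of all genes). Without post-MI replicate 1, 2 or 3 it was 6 each time (17.1%, beside 23.4%, 20% and 32% of all genes).

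The lower estimate shrank when either post-MI replicate 1 or naive replicate 1 was left out. It grew when naive replicate 2, post-MI replicate 2 or post-MI replicate 3 was left out. Post-MI replicate 1 held the lowest value of the 6 libraries for 22 of the 35 members (62.9%), where it was lowest for 18.6% of all genes tested. The members were not alone in this. It was also lowest for 8 of 16 further subunits of complex I and 9 of 17 genes of the tricarboxylic acid cycle. For ATP synthase it was lowest for 4 of 18. Naive replicate 1 held the highest value for 16 members (45.7%, beside 28.8% of all genes). Set against each gene's own mean, the median member deviated by 0.10, -0.02 and 0.03 on the log2 scale in naive replicates 1, 2 and 3, and by -0.16, 0.02 and 0.04 in post-MI replicates 1, 2 and 3. Post-MI replicates 2 and 3 thus lay among the naive libraries. Without post-MI replicate 1, 19 members were lower and 16 higher, with a median of -0.01, and without naive replicate 1, 22 were lower and 13 higher, with a median of -0.02. As a share of all counts, the 35 subunits took 0.191% in post-MI replicate 1, and elsewhere 0.210% to 0.234%. The total count of post-MI replicate 1, 18747848, lay inside the range of the others.

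**Figure D2:**
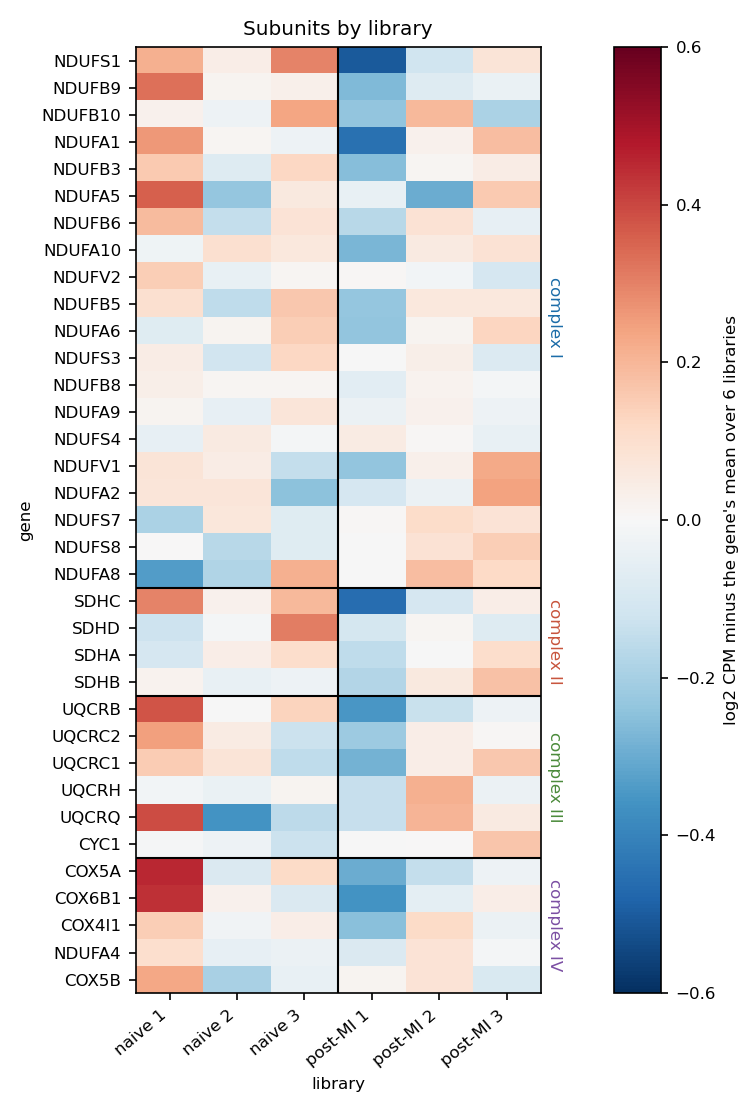
Log2 CPM of each subunit (rows, grouped by complex) minus that gene's mean over the 6 libraries (columns, 3 naive then 3 post-MI); red is above and blue below the mean. Post-MI replicate 1 is the lowest library for 22 of 35 subunits, and naive replicate 1 the highest for 16.

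The 4 complexes had similar medians. The median log2 fold change was -0.07 in complex I (14 of 20 lower), -0.08 in complex II (3 of 4 lower), -0.01 in complex III (3 of 6 lower) and -0.11 in complex IV (5 of 5 lower). These are descriptions of the lists, with no test. Signs were not stable to single libraries: complex II gave 0.01 without naive replicate 3, and complex III turned to 0.03 without naive replicate 1 or to 0.09 without post-MI replicate 1. Complexes I and IV gave -0.01 each without post-MI replicate 1. Complex I gave -0.08 without post-MI replicate 3, and complex IV gave -0.19 without post-MI replicate 2. With NDUFA4 counted in complex I, as its name has it, the median of complex IV was -0.18 and that of complex I was -0.06.

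In post-MI replicate 1 all 4 complexes lay below their mean, with median deviations of -0.13, -0.16, -0.18 and -0.25 for complexes I, II, III and IV. In naive replicate 1 they spread, at 0.06, -0.04, 0.20 and 0.23 in the same order, so that complexes III and IV were high there and complex II was not. In naive replicate 3 complex II stood at 0.15 and complex III at -0.13. Naive replicate 2 and post-MI replicates 2 and 3 had every complex between -0.05 and 0.08.

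Complex I, the NADH dehydrogenase, has a conserved core that carries the flavin and the iron-sulfur clusters and a larger set of accessory (supernumerary) subunits around it. NDUFS1, the largest iron-sulfur subunit, was at 85.2, 75.6 and 90.4 CPM in naive replicates 1, 2 and 3 and at 51.9, 67.6 and 77.6 CPM in post-MI replicates 1, 2 and 3. The post-MI libraries differed among themselves more than the naive ones, and the groups overlapped only because post-MI replicate 3 lay above naive replicate 2. Its log2 fold change was -0.35 ± 0.18 (SE, edgeR adjusted p = 0.583), and -0.20 without post-MI replicate 1. NDUFS8, which holds iron-sulfur clusters on the path to ubiquinone, was at 36.1, 32.1 and 34.2 CPM in naive and 36.0, 38.3 and 39.9 CPM in post-MI libraries. Its post-MI libraries were the 2 highest of all and 1 level with naive replicate 1, and the estimate was 0.16 ± 0.12 on the log2 scale (SE, edgeR adjusted p = 0.685).

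The other core subunits of complex I gave estimates on both sides of 0. NDUFS7, another iron-sulfur subunit of the quinone-facing arm, gave 0.13 ± 0.13, and NDUFV1, which binds NADH and the flavin, gave 0.02 ± 0.16 (SE). NDUFV2, its iron-sulfur partner, gave -0.08 ± 0.12, and NDUFS3 gave -0.04 ± 0.13 (SE). NDUFV1 ranged from 67.8 CPM in post-MI replicate 1 to 93.5 CPM in post-MI replicate 3, a spread within 1 group that covered all naive libraries. The 6 core subunits tested had a median of -0.01 and the 14 supernumerary ones a median of -0.08, with 3 of 6 and 11 of 14 lower. In post-MI replicate 1 their median deviations were -0.00 and -0.20, but both sets were mixed there. The core subunits NDUFS1 and NDUFV1 were at -0.50 and -0.24, and NDUFS1 was the lowest of all members. The supernumerary NDUFA8, NDUFA9, NDUFA5 and NDUFS4 were at -0.00, -0.03, -0.05 and 0.05.

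Among the supernumerary subunits, NDUFB9 was at 62.6, 50.4 and 50.8 CPM in naive replicates 1, 2 and 3 and at 41.3, 47.1 and 48.4 CPM in post-MI replicates 1, 2 and 3. Every post-MI library lay below every naive one, by 1.94 CPM between the nearest pair. The log2 fold change was -0.26 ± 0.15 (SE, edgeR adjusted p = 0.604). It was -0.31 without naive replicate 2 and -0.14 without naive replicate 1. NDUFA8, an accessory subunit of the membrane arm, was at 27.0, 30.1 and 39.5 CPM in naive and 34.0, 38.7 and 36.9 CPM in post-MI libraries. Naive replicates 1 and 2 were the 2 lowest and naive replicate 3 the highest, and the estimate of 0.18 ± 0.17 (SE) was 0.36 without naive replicate 3.

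The remaining accessory subunits gave smaller estimates. NDUFB10, NDUFA1, NDUFB3 and NDUFA5 lay between -0.15 and -0.13 on the log2 fold change scale, and NDUFB6, NDUFA10, NDUFB5 and NDUFA6 between -0.09 and -0.06. NDUFB8 (-0.04), NDUFA9 (-0.03) and NDUFS4 (0.01), a subunit whose loss causes a severe complex I deficiency in humans, were the nearest to 0, and NDUFA2 gave 0.07. NDUFB8 was the steadiest member of complex I: it ran from 61.9 to 66.2 CPM over the 6 libraries, a ratio of 1.07, and NDUFS4 ran from 39.5 to 42.5 CPM. NDUFS1 was the least steady of all members, with a ratio of 1.74 between its highest and lowest library.

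Complex II, succinate dehydrogenase, belongs to both the chain and the tricarboxylic acid cycle and has no subunit made in mitochondria. SDHA, the flavoprotein that oxidises succinate, was at 150, 165 and 173 CPM in naive and 145, 161 and 173 CPM in post-MI libraries. SDHB, the iron-sulfur subunit, was at 54.8, 52.3 and 52.8 CPM in naive and 47.8, 56.4 and 61.0 CPM in post-MI libraries. In both genes the groups overlapped, with log2 fold changes of -0.03 ± 0.14 and 0.05 ± 0.14 (SE).

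The membrane anchors of complex II had lower estimates. SDHC was at 72.8, 60.3 and 67.8 CPM in naive replicates 1, 2 and 3 and at 43.0, 55.2 and 60.8 CPM in post-MI replicates 1, 2 and 3. The groups overlapped by 1 library, since post-MI replicate 3 was just above naive replicate 2. The log2 fold change was -0.34 ± 0.17 (SE, edgeR adjusted p = 0.577) with a 95% interval of -0.73 to 0.06, and it was -0.20 without post-MI replicate 1. SDHD was at 80.9, 87.5 and 109 CPM in naive and 82.0, 88.7 and 83.5 CPM in post-MI libraries. Its estimate of -0.13 ± 0.15 (SE) came with naive replicate 3 high above the other 5 libraries, and it was 0.01 without that library.

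Within a library, the ratio of 2 subunits of 1 complex does not depend on how libraries are scaled. The log2 ratio of SDHC to SDHB, set to a mean of 0 over the 6 libraries, was 0.28, 0.07 and 0.23 in naive replicates 1, 2 and 3 and -0.28, -0.16 and -0.13 in post-MI replicates 1, 2 and 3. The groups did not overlap, and their means differed by -0.39. The pair was chosen after its values were seen, so this difference is a description with no test. It set the lowest estimate of complex II against the highest, so the choice itself favoured a gap. How often other pairs part in this way was not counted.

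Complex III passes electrons from ubiquinol to cytochrome c. UQCRB, a small subunit near the quinone site, was at 52.0, 39.9 and 43.9 CPM in naive replicates 1, 2 and 3 and at 31.4, 36.5 and 39.2 CPM in post-MI replicates 1, 2 and 3. The groups did not overlap, though post-MI replicate 3 and naive replicate 2 nearly met. Post-MI libraries averaged 35.7 ± 3.98 CPM against 45.3 ± 6.17 CPM (SD, n = 3 each), a ratio of 0.788 with a 95% interval of 0.612 to 1.02 (log2 fold change -0.34 ± 0.16, SE). This was the smallest unadjusted p of any member, 0.0620 in edgeR's quasi-likelihood test. The log2 fold change of UQCRB was -0.43 without naive replicate 2 and -0.22 without naive replicate 1.

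CYC1, the cytochrome c1 that hands electrons to cytochrome c, was at 88.1, 86.7 and 81.1 CPM in naive and 88.5, 88.7 and 99.4 CPM in post-MI libraries. The groups were parted by 0.408 CPM, and the log2 fold change was 0.11 ± 0.12 (SE, edgeR adjusted p = 0.785). UQCRC2, one of the core scaffold proteins, was at 117, 102 and 89.9 CPM in naive and 84.6, 101 and 98.8 CPM in post-MI libraries, with a log2 fold change of -0.12 ± 0.15 (SE). Its partner UQCRC1 gave -0.05 ± 0.17 and the hinge protein UQCRH 0.03 ± 0.14 (SE). UQCRQ had the widest error of all members, 0.05 ± 0.22 (SE), with naive replicate 1 at 29.3 CPM and the other libraries at 17.4 to 25.8 CPM. Without naive replicate 1 its estimate was 0.31, and without naive replicate 2 it was -0.10.

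Complex IV, cytochrome c oxidase, has a catalytic core made in mitochondria, so all 5 members tested here are supernumerary. COX5A was at 82.1, 56.4 and 64.9 CPM in naive replicates 1, 2 and 3 and at 48.7, 54.2 and 58.7 CPM in post-MI replicates 1, 2 and 3. Naive replicate 1 was far above the rest, and the groups overlapped only through post-MI replicate 3 and naive replicate 2. The log2 fold change was -0.33 ± 0.17 (SE, edgeR adjusted p = 0.585). It was -0.45 without naive replicate 2 and -0.16 without naive replicate 1. COX6B1, which lies on the side where cytochrome c docks, was at 109, 82.2 and 76.2 CPM in naive and 63.1, 77.7 and 83.2 CPM in post-MI libraries. Its estimate of -0.26 ± 0.19 (SE) ran from -0.36 to -0.08 with 1 library left out, and was -0.08 without naive replicate 1.

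COX4I1, the common isoform of subunit 4, was at 184, 164 and 171 CPM in naive and 140, 180 and 162 CPM in post-MI libraries. Only post-MI replicate 1 lay well away from the others. The log2 fold change was -0.11 ± 0.15 (SE), or -0.01 without that library and -0.19 without post-MI replicate 2. NDUFA4 was at 72.0, 65.0 and 65.5 CPM in naive and 63.1, 71.0 and 66.6 CPM in post-MI libraries. Its estimate was -0.01 ± 0.12 (SE), and that of COX5B was -0.01 ± 0.15 (SE). Naive replicate 1 was the highest library for all 5 subunits of complex IV, and post-MI replicate 1 the lowest for 4 of them, COX5B being the exception.

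**Figure D3:**
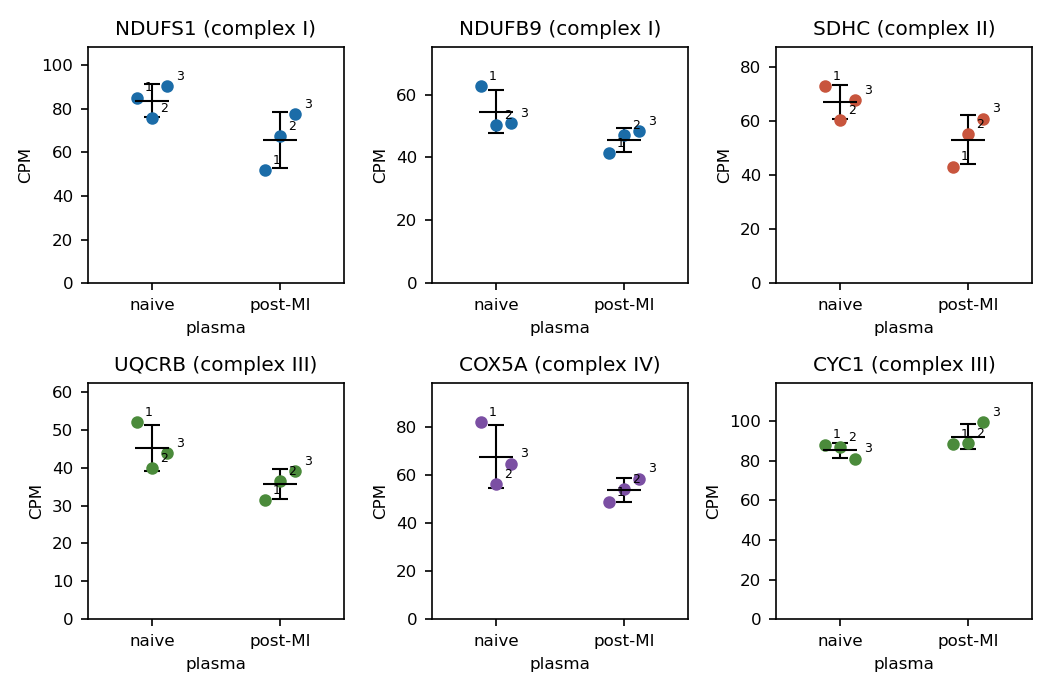
CPM (y axis, from 0) of 6 subunits in each library, marked by replicate number, for naive and post-MI plasma; the bar is the group mean and whiskers are the SD (n = 3). In NDUFS1, NDUFB9, SDHC, UQCRB and COX5A the lowest point is post-MI replicate 1, and CYC1 is parted the other way by 0.408 CPM.

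Subunits made in mitochondria were less steady than the nuclear ones and followed other libraries. The median SD of log2 CPM over the 6 libraries was 0.40 for the 13 mitochondrially encoded subunits, 0.15 for the 35 nuclear members and 0.27 over all genes tested. The mitochondrial genes were high in naive replicate 1 and post-MI replicates 1 and 2, with median deviations of 0.43, 0.26 and 0.35, and low in naive replicates 2 and 3 and post-MI replicate 3, at -0.38, -0.17 and -0.36. Both plasma groups thus held high and low libraries. In post-MI replicate 1 the nuclear members were at their lowest while the mitochondrial genes were above their mean. Together the mitochondrial genes took 0.407% to 0.684% of all counts.

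By gene, 11 of the 13 mitochondrial subunits had a positive log2 fold change (median 0.16). The groups were parted for 0 of them, beside 16.1% of all genes. By edgeR's adjusted test 0 passed, where 0% of all genes passed. ND1, a membrane core subunit of complex I, was at 26.8, 17.1 and 21.1 CPM in naive and 29.9, 40.4 and 26.0 CPM in post-MI libraries. Only naive replicate 1 reached into the post-MI range, and the log2 fold change was 0.57 ± 0.23 (SE, edgeR adjusted p = 0.566). COX1, the catalytic subunit of complex IV, was at 1117, 727 and 701 CPM in naive and 630, 925 and 710 CPM in post-MI libraries, and gave -0.17 ± 0.24 (SE). ATP6 of ATP synthase gave 0.40 ± 0.27 and CYTB of complex III 0.17 ± 0.26 (SE). These rows carry the mitochondrial gene names, and the prostaglandin synthases PTGS1 and PTGS2 have rows of their own. Libraries were made with an mRNA kit, and copies of mitochondrial DNA in the nuclear genome could share reads with these rows, so their values are less certain.

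**Figure D4:**
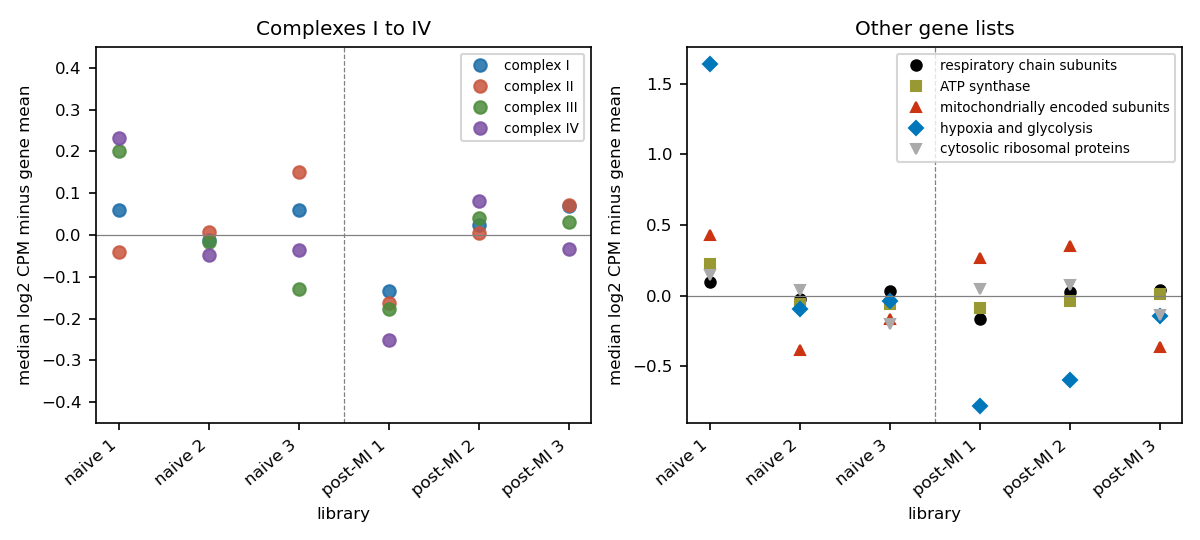
Median over each gene list of log2 CPM minus the gene's mean over 6 libraries (y axis), by library; left, complexes I to IV, and right, all 35 members beside 4 other lists, on a wider scale. Complexes lie lowest in post-MI replicate 1 (-0.13 to -0.25), where the mitochondrially encoded list is at 0.26, and the hypoxia and glycolysis list reaches 1.64 in naive replicate 1.

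Hypoxia and glycolysis genes moved over a far wider range than the chain. Their median deviation was 1.64 in naive replicate 1, -0.09 and -0.03 in naive replicates 2 and 3, and -0.78, -0.60 and -0.14 in post-MI replicates 1, 2 and 3. Of 16 tested genes of that list 15 were lower with post-MI plasma, 5 of them without overlap (31.2%, beside 7.82% of all genes). By edgeR 0 passed the adjusted test, where 0% of all genes passed. At an unadjusted p under 0.05 there were 9 of the 16, all lower, beside 8.68% of all genes. Naive replicate 1 was the highest library for 15 of the 16, and how far the 9 rest on that library was not tested. NDRG1, induced by low oxygen, was at 144, 57.3 and 55.4 CPM in naive and 24.5, 24.9 and 41.3 CPM in post-MI libraries. Its log2 fold change was -1.50 ± 0.42 (SE). LDHA, which makes lactate, was at 1884, 436 and 826 CPM in naive and 243, 363 and 511 CPM in post-MI libraries. PDK1, a kinase that holds back entry of pyruvate into mitochondria, stood at 38.9 CPM in naive replicate 1, with 4.45 to 7.99 CPM in the others. In naive replicate 1, where both were highest, the median of the 35 subunits was 0.10 and 16 of them were at their own highest. NDUFA4L2 and COX4I2, isoforms known to be induced by low oxygen, were scarce: NDUFA4L2 was below the filter, at 0 to 0.235 CPM, and COX4I2 had 4 counts, or 0.200 CPM, in naive replicate 1, the others reaching 0.463 to 0.820 CPM.

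Subunits outside the named members had more estimates above 0 than below. Among 16 tested further subunits of complex I, 9 were higher and 7 lower (median 0.03), and among 3 of complexes III and IV all 3 were higher (median 0.16), where the 5 named members of complex IV were all lower. By edgeR's adjusted test 0 passed (0% of all genes), and NDUFS6 alone had an unadjusted p under 0.05 (8.68% of all genes). NDUFS6, an accessory subunit of the NADH-oxidising arm, was at 16.6, 18.8 and 20.4 CPM in naive and 23.4, 23.0 and 25.7 CPM in post-MI libraries, without overlap (log2 fold change 0.37 ± 0.14, SE; edgeR adjusted p = 0.566). NDUFB4 went the other way, also without overlap, with 28.1 to 41.1 CPM in naive and 21.1 to 26.6 CPM in post-MI libraries (-0.40 ± 0.20, SE). Of the 16 further subunits of complex I, 1 higher and 1 lower were thus parted (12.5%, beside 16.1% of all genes). COX6A1 of complex IV averaged 101 ± 5.56 CPM in naive and 123 ± 8.22 CPM in post-MI libraries (SD, n = 3 each), without overlap (log2 fold change 0.29 ± 0.13, SE; edgeR adjusted p = 0.566), and UQCR10 of complex III gave 0.16 ± 0.14 (SE). COX7A1, an isoform best known from muscle, gave 0.37 ± 0.33 (SE).

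ATP synthase, which uses the proton gradient, had 14 of 18 tested members lower and 4 higher (median -0.08). EdgeR gave 0 calls (0% of all genes). Its subunit ATP5F1D gave 0.35 ± 0.16 and ATP5PB -0.34 ± 0.22 (SE), the latter with naive replicate 1 at 152 CPM and the rest at 87.7 to 93.3 CPM. The list was highest in naive replicate 1 (0.22) and at -0.09 in post-MI replicate 1. The tricarboxylic acid cycle and pyruvate dehydrogenase had 15 of 17 genes lower (median -0.16). Without overlap 4 were lower and 1 higher (29.4%, beside 16.1% of all genes). By edgeR there were 0 calls (0% of all genes), and 2 of the 17 had an unadjusted p under 0.05, beside 8.68% of all genes. PDHA1, a catalytic subunit of pyruvate dehydrogenase, was at 169, 145 and 144 CPM in naive and 89.4, 101 and 134 CPM in post-MI libraries (-0.49 ± 0.18, SE). OGDH, the cycle's oxoglutarate dehydrogenase, was at 181, 144 and 178 CPM in naive and 248, 233 and 226 CPM in post-MI libraries (0.49 ± 0.14, SE; edgeR adjusted p = 0.493).

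Assembly factors of the complexes had 21 of 34 tested genes lower (median -0.09). Without overlap 5 were lower and 2 higher (20.6%, near the 16.1% of all genes). By edgeR there were 0 calls (0% of all genes), and 3 of the 34 had an unadjusted p under 0.05, near the 8.68% of all genes. SDHAF1, which helps insert iron-sulfur clusters into SDHB, was at 7.61, 5.91 and 7.33 CPM in naive and 3.16, 4.85 and 3.69 CPM in post-MI libraries. Every post-MI library was below every naive one, at -0.84 ± 0.24 on the log2 scale (SE, edgeR adjusted p = 0.491), while SDHB itself overlapped. NDUFAF2, a complex I assembly factor, gave -0.81 ± 0.29 (SE), without overlap. Of 17 electron carriers and enzymes of quinone synthesis, 9 were higher and 8 lower (median 0.12), with COQ6 at 0.36 ± 0.15 and GPD2, the mitochondrial glycerol phosphate dehydrogenase, at -0.58 ± 0.29 (SE).

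Regulators of mitochondrial gene expression were 7 higher and 8 lower of 15 tested (median -0.02), with 0 edgeR calls (0% of all genes). NRF1, a transcription factor of respiratory genes, was at 17.2, 15.8 and 16.5 CPM in naive and 22.4, 20.7 and 17.5 CPM in post-MI libraries (0.29 ± 0.15, SE), parted by a narrow gap. TFAM, which packages and transcribes mitochondrial DNA, gave -0.07 ± 0.19, the mitochondrial DNA polymerase POLG 0.30 ± 0.14 and the coactivator PPARGC1B -0.71 ± 0.35 (SE). PPARGC1A, a coactivator known for driving mitochondrial biogenesis, had 0 counts in 5 libraries, where 3 counts, the limit that a count of 0 allows, equal 0.151 to 0.202 CPM, and 0.188 CPM in naive replicate 3. Of 74 mitochondrial ribosomal proteins 31 were higher and 43 lower (median -0.05), with MRPS2 at 0.54 ± 0.15 and MRPL27 at -0.42 ± 0.17 (SE). Of 22 import, carrier and outer membrane genes 18 were lower (median -0.13), among them the porin VDAC3 at -0.47 ± 0.19 and the carrier SLC25A11 at -0.37 ± 0.16 (SE). Cytosolic ribosomal proteins had 29 higher and 27 lower of 56 (median 0.00) and a median SD over libraries of 0.15, and 40 of them were lowest in naive replicate 3 against 1 in post-MI replicate 1. The smallest p in that list belonged to RPS15 (0.23 ± 0.15) and RPL15 (0.26 ± 0.19, SE). In the hypoxia and glycolysis list, by contrast, post-MI replicate 1 was the lowest library for 10 of 16 genes, and in the tricarboxylic acid cycle for 9 of 17.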

How the data were processed

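Messenger RNA of cultured sheep mitral valve endothelial cells was sequenced in 6 libraries, 3 with naive and 3 with post-MI plasma, from a stranded kit read as paired ends of 150 bases, per the labels' protocols. Raw counts per gene symbol were deposited by the authors in one table, and per the submitters' processing notes the build was Oar_v3.1 and the tools were FastQC, MultiQC 1.5, STAR 2.5.2b, featureCounts 2.0.0, SAMtools 1.9 and DESeq2 1.26.0. For annotation and strand setting, nothing is given in the sources used here, so reads of near-identical copies, pseudogenes or antisense genes could be shared. In the deposited signal files each library's counts are divided by a constant (100% of values above 0, within 0.01%), and they were not used further.

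Counts were fitted in R 4.3.3 with edgeR 4.0.16: filterByExpr (minimum count 10, minimum total count 15), TMM scaling, the quasi-likelihood test and Benjamini-Hochberg adjustment over all genes tested. SE is the size of the log2 fold change divided by the root of F, and 95% intervals use the t distribution with the test's degrees of freedom. Deviations use log2 CPM with a prior count of 2. Counts of 3 per library set the floor of detection, which covers counting error alone. Member and list choices were made with earlier results of these data known. Alternatives were DESeq2 1.42.0, limma-voom (limma 3.58.1), 3 other scalings, 2 other filters, a replicate block and each library left out. Per-library values are given for all complex II subunits, the 3 members with the smallest p in each other complex, COX4I1, NDUFA4 and members without overlap, and a few more chosen after their values were seen. From each of 13 other lists the 2 genes with the smallest p are named, with 7 fixed genes, and CYTB and COX1 were added in the same way. CPM of different genes are not compared, since transcript lengths were not used. No promoter motifs were searched and no sequences are printed.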

Additional observations from a re-analysis of the deposited data

How the results depend on the processing

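Members called stayed at 0 under every alternative run. DESeq2 called 221 genes in all, where edgeR and limma-voom called 0. With single libraries left out, members at an unadjusted edgeR p under 0.05 numbered 0 to 2. These were COX5A and UQCRB without naive replicate 2, where 1629 of all 14450 genes tested had such a p. Without naive replicate 3 it was NDUFA8 (1477 of 14423 genes). Without post-MI replicate 3 they were NDUFS1 and SDHC (1409 of 14460 genes). Members without overlap numbered 5 to 11 (14.3% to 31.4%, beside 20% to 32% of all genes). With the replicate number as a block, members called stayed at 0 and the median member was at -0.06. The numbers were not read as pairs, since same-numbered libraries deviated with correlations of 0.15, -0.11 and 0.09, and naive replicate 2 correlated best with post-MI replicate 1 (0.12). Of 280 member estimates under other alternatives, 276 kept their sign; NDUFS4 was at -0.016 with plain library totals, and COX5B at 0.000413 with DESeq2, 0.00464 with limma-voom and 0.00283 with the block. With 1 library left out, 182 of 210 kept it, and 18 members turned in at least 1 fit, with these ranges: NDUFA1 -0.28 to 0.023, NDUFA2 -0.039 to 0.14, NDUFA5 -0.27 to 0.039, NDUFA6 -0.14 to 0.042, NDUFA9 -0.056 to 0.0063, NDUFA10 -0.15 to 0.026, NDUFB5 -0.16 to 0.0205, NDUFS3 -0.10 to 0.017, NDUFS4 -0.015 to 0.036, NDUFV1 -0.0903 to 0.14, SDHA -0.0901 to 0.038, SDHB -0.033 to 0.14, SDHD -0.21 to 0.0097, UQCRC1 -0.14 to 0.074, UQCRH -0.072 to 0.11, UQCRQ -0.096 to 0.31, COX5B -0.097 to 0.13 and NDUFA4 -0.055 to 0.046. The other 17 members kept their sign. Medians of the members and of each complex moved by less than the spread between libraries under every alternative. The rule that marks single libraries for a closer look was not applied, since groups of 3 are too small for it. With 3 libraries per group, true differences of any size inside a member's 95% interval remain possible. If the replicates are technical, larger ones do too.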

Other observations

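Ratios between subunits of 1 complex were looked at in 3 further pairs, chosen after their values were seen, and are given with no test. Each is a log2 ratio within a library, set to a mean of 0 over the 6 libraries. UQCRB over CYC1 in complex III was 0.39, 0.03 and 0.26 in naive replicates 1, 2 and 3 and -0.35, -0.13 and -0.19 in post-MI replicates 1, 2 and 3. NDUFS1 over NDUFS8 in complex I was 0.21, 0.21 and 0.37 in naive and -0.50, -0.21 and -0.07 in post-MI libraries. COX5A over COX5B in complex IV was 0.22, 0.10 and 0.16 in naive and -0.31, -0.23 and 0.06 in post-MI libraries. The groups did not overlap in any of these 3 pairs, and the differences of the group means were -0.45, -0.52 and -0.32 in this order. Each pair set the lowest estimate of its complex against an estimate at or near the highest, so the choice itself favoured a gap. How often other pairs part in this way was not counted.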
